A study of Rattus norvegicus with 72 samples.

Results

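The nuclear genes that encode subunits of the mitochondrial respiratory chain and ATP synthase were examined in adult male Sprague-Dawley rats, in the left kidney that remained after right nephrectomy or sham surgery. Members were the genes of both count tables whose symbol starts with Ndufa, Ndufb, Ndufc, Ndufs, Ndufv, Uqcr, Cox4, Cox5, Cox6, Cox7, Cox8 or Atp5, together with Sdha, Sdhb, Sdhc and Sdhd. Assembly factors named Ndufaf and genes named as pseudogenes were not taken. This gave 86 of 32545 genes: 33 of complex I, 4 of complex II, 8 of complex III, 22 of complex IV and 19 of ATP synthase. Ndufa4 and its relative Ndufa4l2 were counted with complex IV. Atp5s, Atp5sl and Atp5hl1 carry an Atp5 symbol without being core ATP synthase subunits. The 86 genes bear 81 symbols, because Atp5f1, Cox6b1, Cox7a2, Ndufa13 and Uqcr10 each stand for more than 1 Ensembl gene (10 genes in all), which are told apart here by their ID.

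The study asked how transcripts of the remaining kidney differ from those after sham surgery as it grows. Nephrectomized rats had the right renal vessels and ureter tied and the right kidney excised, sham rats had the right renal pedicle dissected and the wound closed, and all were fed normal chow. Microdissected S1 tubules (the first stretch of the proximal tubule), microdissected glomeruli (the filtering capillary tufts) and whole left kidney were sampled 24, 48 and 72 h after surgery, with 4 libraries in each of the 18 groups of tissue, surgery and time. The NuGEN Ovation RNA-seq V2 kit amplified the RNA of S1 tubules and glomeruli, which was read from 1 end, whereas whole kidney RNA went into strand-specific TruSeq libraries read from both ends, so whole kidney levels are only set beside those of the segments. Whether each library of a group is its own rat is not stated in the labels, so p-values reflect library-to-library spread, some of which may be technical.

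The respiratory chain sits in the inner mitochondrial membrane. Complex I takes electrons from NADH and complex II takes them from succinate, ubiquinone carries them to complex III, cytochrome c carries them on to complex IV, and complex IV hands them to oxygen. Complexes I, III and IV pump protons, and ATP synthase uses the proton gradient to make ATP. Most subunits come from nuclear genes, and a small set, absent from complex II, is encoded by the mitochondrial genome. Proximal tubules depend on this machinery to power the reabsorption of filtered sodium, glucose and amino acids. In bulk samples, fewer cells of a type and less RNA per cell cannot be told apart.

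In the libraries used here, total gene counts ran from 7883861 to 87368807 in S1 tubules, 2643258 to 37408599 in glomeruli and 10102869 to 55517383 in whole kidney, and mitochondrial genome transcripts took a median of 58.5%, 16.1% and 55.2% of them in the same order. Markers fitted the labels: in sham libraries the 16 proximal tubule markers summed to a median of 4.92% of nuclear gene counts in S1 tubules and 0.194% in glomeruli, and the 10 podocyte markers to 0.0115% and 1.99%, with Cldn5 at 0 in every segment library. The exceptions were the sham 24 h libraries numbered 2. In the library labelled S1 tubules the members took 0.395% of nuclear gene counts, podocyte markers 1.48% and proximal markers 0.322%, whereas in the library labelled glomeruli they took 1.5%, 0.0171% and 5.32%. Both go against their labels, and they were left out unless stated, so sham 24 h has 3 libraries in each segment. A library of S1 tubules, nephrectomy 72 h replicate 2, also stood apart. It had the lowest total of the S1 libraries used, and 61 of its 71 members that could be compared were the lowest of their group, against 38.2% of all genes. There Cox4i1 had 20 counts, against 2790 to 13648 in the other 3 libraries, and both Cox6b1 genes had 0. Ndufa4 still had 2061 counts and Atp5b 2834. For S1 nephrectomy, the summed share, the medians at 72 h and over the times, the intervals and the members with the smallest p-values are also given without it.

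The members took 4.11 times as large a share of nuclear gene counts in sham S1 tubules as in sham glomeruli, and nephrectomy groups overlapped sham groups in each tissue. In S1 tubules the share was 1.87 ± 0.491% after nephrectomy (SD, n = 12; 1.97 ± 0.38% without 72 h replicate 2) and 1.90 ± 0.399% after sham surgery (n = 11). In glomeruli it was 0.467 ± 0.0791% after nephrectomy (n = 12) and 0.463 ± 0.0697% after sham surgery (n = 11). In whole kidney it was 1.88 ± 0.119% after nephrectomy and 1.87 ± 0.360% after sham surgery (n = 12 each). The lowest sham S1 library, at 1.15%, lay above the highest sham glomerulus library, at 0.551%. No test was run on this sum. Taken over all gene counts, mitochondrial genome included, the sham S1 share was 2.03 times that of sham glomeruli.

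**Figure D1:**
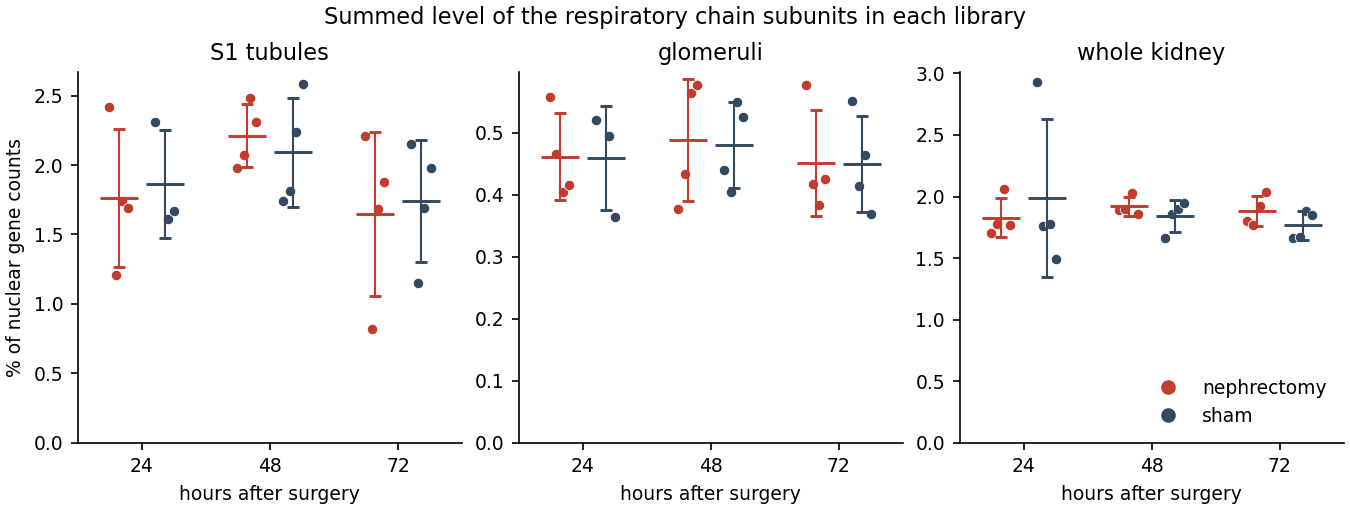
Summed counts of the 86 members as a percent of the counts of nuclear genes, by hours after surgery, in S1 tubules, glomeruli and whole kidney. Each point is a library, bars give the mean and SD of a group, and each panel has its own axis that starts at 0; the S1 nephrectomy 72 h library at 0.822% and the whole kidney sham 24 h library at 2.93% lie farthest from their groups.

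At baseline nearly all subunits were higher in S1 tubules than in glomeruli. Of 82 members with enough counts to be tested in the sham libraries of both segments, 71 were higher and 3 lower in S1 tubules at an adjusted p of 0.05 in edgeR's quasi-likelihood test, while 39.7% of all 24488 genes tested passed (18.6% higher, 21.1% lower). The members' median log2 fold change was 2.35, against -0.69 over all genes. In 61 members every one of the 11 S1 libraries lay above every one of the 11 glomerulus libraries, a pattern seen in 8.42% of all genes. The size of the shift depended on the scaling. With library totals in place of TMM factors the members' median was 0.65 and that of all genes -2.37, and 41 members were called higher and 12 lower, where 87% of all genes were called (5.77% higher, 81.2% lower). The distance between the members' and the overall median was 3.05 with TMM and 3.02 without it. The 4 members left untested were both Atp5f1 genes, Ndufa1 and the Cox7a2 gene ENSRNOG00000027791, none above 0.535 CPM in a sham library, where CPM is the count scaled by library total and TMM factor.

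**Figure D2:**
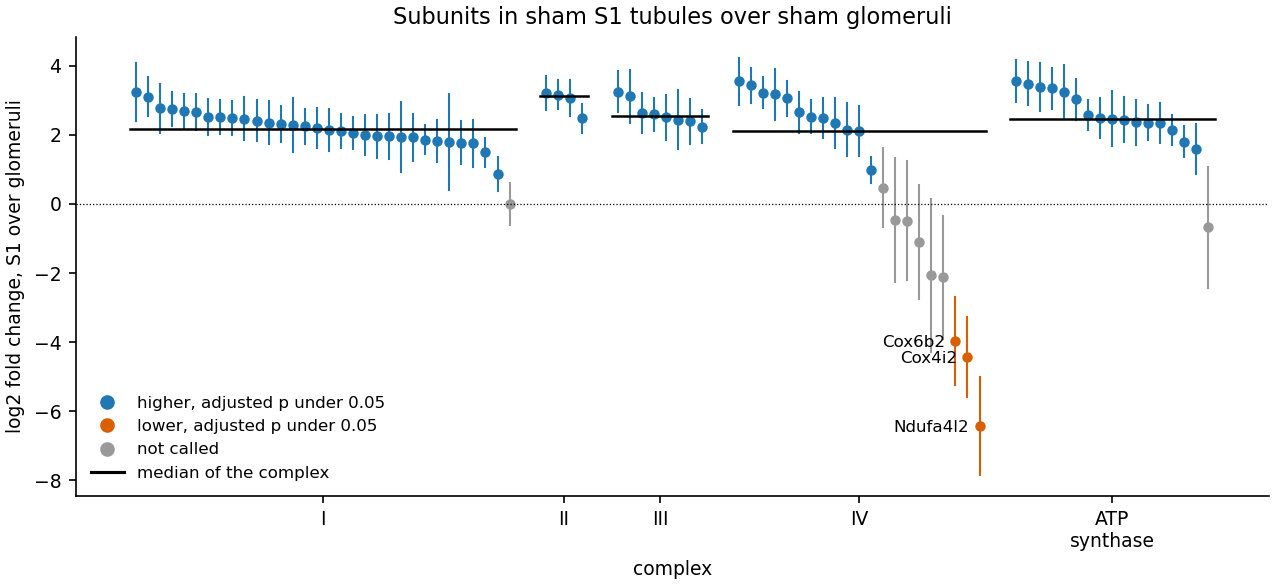
Log2 fold change of each tested member, sham S1 tubules over sham glomeruli, ordered within each complex. Points are edgeR estimates with 95% intervals, blue and orange mark adjusted p under 0.05, and black lines are complex medians; 71 members lie above 0 in blue, and Cox6b2, Cox4i2 and Ndufa4l2 of complex IV lie far below.

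RefSeq promoters of the rat genome build GRCr8, which run from 250 bases before to 50 after a gene's start, were matched for 70 of the 81 member symbols. GCGCA followed by any base and GCGC, the core of the site for nuclear respiratory factor 1 (NRF1), was found on either strand in 11 of them (15.7%), against 4.25% of all 33469 promoters. CCGGAAG, the site of the NRF2 subunit GABPA, was in 20 (28.6%, against 8.75% of all), and TNAAGGTCA, a site for estrogen-related receptors (ERR), in 2 (2.86%, against 1.2%). No overlap was found between these motifs in the promoters shown. By complex, the NRF1 core was in 5 of 15 ATP synthase promoters, 4 of 29 of complex I, 1 of 4 of complex II, 1 of 6 of complex III and 0 of 16 of complex IV. Shown first are the promoters of Atp5o and Atp5g3, a pair among the 8 members with the highest S1 to glomerulus fold change whose promoter holds the NRF1 core. They are followed by those of Ndufa4l2 and Cox6b2, in which every S1 library lay below every glomerulus library. Capitals mark motif letters: the NRF1 core in Atp5o, and, in Atp5g3, the ERR motif followed by the NRF1 core, both on the other strand. The promoters of Ndufa4l2 and Cox6b2 held none of the 3 motifs in this window. Neither did those of Atp5b, Cox5a, Cox7b, Atp5g1 and Uqcrfs1, which are also among the 8 highest members. Whether a motif goes with the fold change was not tested. RefSeq calls the first 2 genes Atp5po and Atp5mc3.
Atp5o (chr11:44657434-44657733, minus strand): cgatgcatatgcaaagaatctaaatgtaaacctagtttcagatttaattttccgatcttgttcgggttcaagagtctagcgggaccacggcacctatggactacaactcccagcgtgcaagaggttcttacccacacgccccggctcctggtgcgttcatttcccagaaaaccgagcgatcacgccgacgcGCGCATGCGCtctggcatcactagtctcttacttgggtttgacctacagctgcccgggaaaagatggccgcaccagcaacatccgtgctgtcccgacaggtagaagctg
Atp5g3 (chr3:79220615-79220914, minus strand): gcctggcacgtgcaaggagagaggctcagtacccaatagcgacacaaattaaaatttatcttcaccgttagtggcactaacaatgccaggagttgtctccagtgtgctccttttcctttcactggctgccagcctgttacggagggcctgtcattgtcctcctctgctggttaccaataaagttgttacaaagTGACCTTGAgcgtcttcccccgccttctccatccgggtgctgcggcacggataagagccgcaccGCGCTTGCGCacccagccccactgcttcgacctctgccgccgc
Ndufa4l2 (chr7:65241919-65242218, plus strand): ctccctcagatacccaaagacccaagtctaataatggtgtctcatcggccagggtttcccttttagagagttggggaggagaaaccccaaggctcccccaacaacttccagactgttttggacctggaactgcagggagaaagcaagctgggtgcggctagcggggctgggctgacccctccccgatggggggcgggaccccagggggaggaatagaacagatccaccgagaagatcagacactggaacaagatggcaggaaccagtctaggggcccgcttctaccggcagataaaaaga
Cox6b2 (chr1:78122621-78122920, plus strand): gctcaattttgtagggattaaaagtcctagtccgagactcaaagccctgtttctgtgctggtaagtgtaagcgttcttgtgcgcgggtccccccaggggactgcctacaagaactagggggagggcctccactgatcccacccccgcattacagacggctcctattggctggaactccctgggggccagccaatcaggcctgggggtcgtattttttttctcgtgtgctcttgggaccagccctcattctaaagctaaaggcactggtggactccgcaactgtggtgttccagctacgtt

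Complex I was higher in S1 tubules in 31 of its 32 tested members, with a median log2 fold change of 2.16 and a range of 0.00 to 3.23. Ndufs1, the largest iron-sulfur subunit of the arm that oxidizes NADH, had 174 to 573 CPM in sham S1 libraries (median 338) and 17.1 to 71 CPM in sham glomeruli (median 41.6). Its log2 fold change was 3.10 ± 0.28 (SE; adjusted p 1.76e-13), and the libraries did not overlap. Ndufv1, which carries the flavin that accepts electrons from NADH, had 74.1 to 178 CPM (median 119) in S1 tubules and 19.8 to 48.8 CPM (median 27.8) in glomeruli, again without overlap (2.13 ± 0.30). Ndufc1, a small accessory subunit, had the highest fold change of the complex (3.23 ± 0.41), with 17.4 to 82.9 CPM in S1 tubules and 1.28 to 8.28 CPM in glomeruli. The accessory subunit Ndufa7 had the lowest among those called (0.85 ± 0.25, adjusted p 0.00428), and its libraries overlapped, with 13.1 to 42 CPM in S1 tubules and 8.98 to 24.3 CPM in glomeruli. The member that did not pass was Ndufb4l1, under 0.606 CPM in every sham segment library.

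All 4 genes of complex II, which is also the succinate dehydrogenase of the tricarboxylic acid cycle, were higher in S1 tubules without overlap, and its median of 3.11 was the highest of the 5 complexes. The flavoprotein Sdha, which oxidizes succinate, had 362 to 847 CPM in sham S1 tubules (median 682) and 37.6 to 140 CPM in sham glomeruli (median 67.4), a log2 fold change of 3.06 ± 0.26 (adjusted p 2.35e-14). The iron-sulfur subunit Sdhb stood at 112 to 223 CPM in S1 tubules and 14.1 to 25.6 CPM in glomeruli (3.2 ± 0.24). The membrane anchor Sdhc had 377 to 693 CPM (median 571) in S1 tubules and 47.8 to 83.2 CPM (median 56.4) in glomeruli (3.16 ± 0.20). The other anchor, Sdhd, had the smallest difference of the complex (2.47 ± 0.21), at 181 to 404 CPM in S1 tubules and 35.2 to 69.9 CPM in glomeruli.

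All 8 genes of complex III were higher in S1 tubules, within the narrow range of 2.23 to 3.24. The highest was Uqcrfs1, the Rieske iron-sulfur protein that passes electrons towards cytochrome c1, with 88.8 to 216 CPM in sham S1 tubules (median 128) and 8.51 to 23.2 CPM in sham glomeruli (median 15). Its fold change was 3.24 ± 0.29 on the log2 scale (adjusted p 2.05e-13). The core protein genes Uqcrc2 (3.11 ± 0.38) and Uqcrc1 (2.39 ± 0.32) and the hinge protein gene Uqcrh (2.23 ± 0.24) also had no overlap between segments. The libraries of the Uqcr10 gene ENSRNOG00000009521 did overlap, at 2.84 to 26 CPM in S1 tubules and 0.999 to 5.06 CPM in glomeruli (2.44 ± 0.43). The chain's mobile carrier, cytochrome c (Cycs), and the complex III subunit cytochrome c1 (Cyc1) lie outside the member rule. Both were higher in S1 tubules as well, by 4.16 ± 0.33 and 3.00 ± 0.28.

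ATP synthase was higher in S1 tubules in 16 of 17 tested members (median 2.46, range -0.68 to 3.56), and it held 5 of the 8 highest members. Atp5b, the catalytic beta subunit, had 1290 to 3500 CPM in sham S1 tubules (median 2220) and 97.1 to 340 CPM in sham glomeruli (median 190). This was an 11.8-fold difference (3.56 ± 0.30 on the log2 scale, adjusted p 3.6e-14), the largest among the members. Its partner Atp5a1, the alpha subunit, had 497 to 1610 CPM in S1 tubules and 45.5 to 146 CPM in glomeruli (3.39 ± 0.34). Atp5o, the stalk protein that links the catalytic head to the membrane part and whose promoter is printed above, had 243 to 483 CPM in S1 tubules and 23.4 to 42.3 CPM in glomeruli (3.48 ± 0.31). The gamma subunit of the rotor, Atp5c1, differed less (2.57 ± 0.21). The member that was not called was Atp5hl1, at most 1.07 CPM in any sham segment library.

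The 3 genes for subunit c, which forms the proton-driven ring of the rotor, make the same mature protein but differed in their contrast between segments. Atp5g3 (3.34 ± 0.30) had 162 to 720 CPM in sham S1 tubules and 21.2 to 72.6 CPM in sham glomeruli, and Atp5g1 (3.25 ± 0.38) had 35.8 to 185 CPM and 3.73 to 16 CPM. Atp5g2 differed by 1.60 ± 0.36, with overlapping ranges of 31.1 to 208 CPM in S1 tubules and 11.9 to 69.7 CPM in glomeruli, and its direction turned (-0.04) without TMM factors. Per transcript length, Atp5g3 made up a median of 61.0% of the summed subunit c level in sham S1 tubules, 42.6% in sham glomeruli and 44.8% in sham whole kidney. Atp5g2 made up 21.0%, 41.2% and 29.5% in the same order of tissues. The shares of single libraries overlapped widely: those of Atp5g3 ran from 36.8 to 86.5% in S1 tubules and from 20.7 to 75.1% in glomeruli.

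Complex IV was the complex with members in both directions: of 21 tested, 12 were higher and 3 lower in S1 tubules, with a median of 2.11. Cox5a had 80.1 to 247 CPM in sham S1 tubules (median 127) and 7.32 to 23 CPM in sham glomeruli (median 11.6), a log2 fold change of 3.55 ± 0.34 (adjusted p 1e-12). Cox7b (3.43 ± 0.25), Ndufa4 (3.21 ± 0.23), Cox8a (3.17 ± 0.36) and Cox6a1 (2.48 ± 0.29) were likewise higher in every S1 library than in any glomerulus library. Cox4i1, the common form of subunit 4, had 124 to 385 CPM in S1 tubules (median 281) and 28.3 to 92.5 CPM in glomeruli (median 64.9), a difference of 2.11 ± 0.36. The Cox6b1 genes ENSRNOG00000034161 and ENSRNOG00000024309 differed by 2.35 ± 0.36 and 2.15 ± 0.38. Cox7a2l, which in mice joins complexes III and IV into supercomplexes, had the smallest difference among the complex IV genes called higher (0.98 ± 0.19), with overlap. Its value without TMM factors is not given here. Without TMM factors Cox4i1 (0.45) and both Cox6b1 genes (0.69 and 0.46) were no longer called.

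The 3 members lower in S1 tubules were all alternative isoforms of complex IV subunits. Ndufa4l2, the paralog of Ndufa4 that is induced through hypoxia-inducible factor in human and mouse cells, had 0 to 0.426 CPM in sham S1 tubules (median 0.0921) and 1.9 to 30 CPM in sham glomeruli (median 5.04). All S1 libraries lay below all glomerulus libraries, with a log2 fold change of -6.43 ± 0.70 (adjusted p 6.08e-11). Cox4i2, the form of subunit 4 known from lung and from oxygen-sensing cells, had 0 to 1.78 CPM in S1 tubules (median 0.227) and 1.7 to 12.2 CPM in glomeruli (median 6.56). Its fold change was -4.42 ± 0.58 (adjusted p 7.47e-09), and the highest S1 library reached just above the lowest glomerulus library. Cox6b2, known as the testis form of subunit 6b, had 0 to 0.639 CPM in S1 tubules (median 0.101) and 0.866 to 5.25 CPM in glomeruli (median 2.4), without overlap (-3.97 ± 0.63, adjusted p 6.8e-07). These 3 kept their direction and call in every alternative analysis run. Because counts in S1 tubules were at or near 0, the fitted fold changes depend on how zeros are treated.

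Per length, these isoforms made up a larger part of their pair in glomeruli than in the other tissues. Ndufa4l2 made up a median of 0.0106% of Ndufa4 plus Ndufa4l2 in sham S1 tubules (0 to 0.0818%). In glomeruli it made up 7.14% after nephrectomy (1.33 to 25.4%) and 5.49% after sham surgery (2.59 to 44.4%), and in sham whole kidney 0.441% (0.222 to 1.07%). Cox4i2 made up 0.0559% of the subunit 4 level in sham S1 tubules (0 to 0.321%) and 0.319% in sham whole kidney (0.106 to 0.782%). In glomeruli its share was 5.69% after nephrectomy (3.81 to 9.96%) and 7.08% after sham surgery (1.86 to 8.72%). Cox6b2 made up 0.105% of the subunit 6b level in sham S1 tubules (0 to 1.29%) and 0.768% in sham whole kidney (0.199 to 2.06%). In glomeruli its share was 15.6% after nephrectomy (7.73 to 25.6%) and 17.3% after sham surgery (6.89 to 22.1%). The sham medians of whole kidney stood between those of the segments for each of the 3, but its libraries were made with another kit. In sham S1 tubules the 8 endothelial markers found summed to a median of 0.0253% and the 8 mesangial and smooth muscle markers to 0.00321% of nuclear counts, against 0.770% and 0.315% in sham glomeruli. Which glomerular cell type carried these isoforms cannot be told apart.

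**Figure D3:**
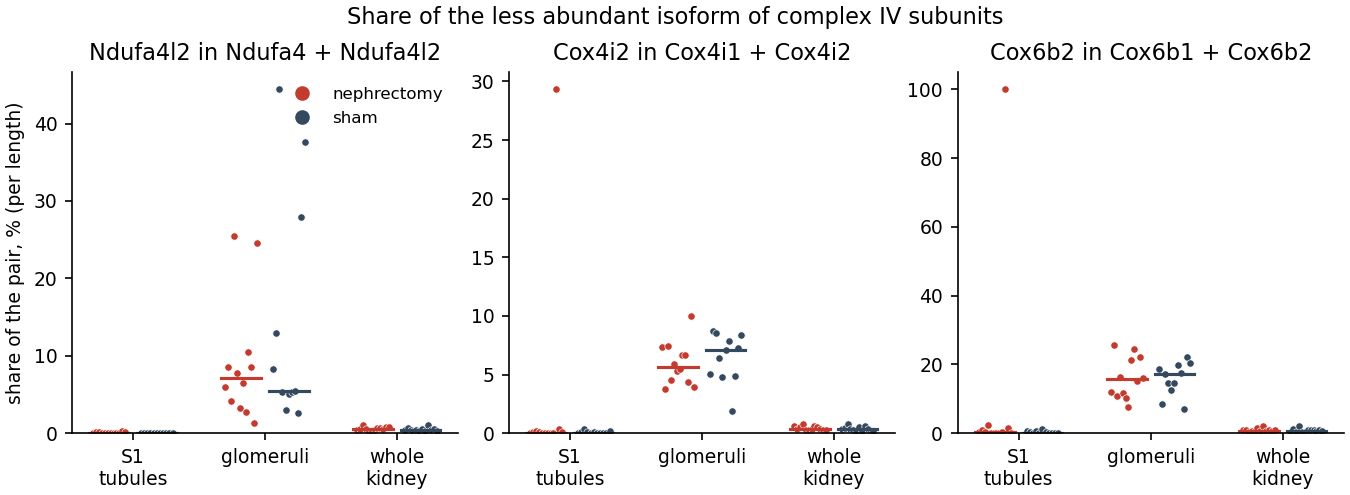
Share of Ndufa4l2, Cox4i2 and Cox6b2 in the summed per-length level of their isoform pair, in percent, for each library of S1 tubules, glomeruli and whole kidney. Lines are group medians; the glomerulus points stand above the S1 points in each panel except for S1 nephrectomy 72 h replicate 2, where Cox6b1 had 0 counts and the shares of Cox6b2 and Cox4i2 were 100% and 29.3%.

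Other tissue-specific isoforms were low in all tissues. Cox8c, a testis form of subunit 8, had 0 to 0.568 CPM in sham S1 tubules and 0.124 to 2.03 CPM in sham glomeruli, and its difference of -2.12 ± 0.88 just missed the threshold (adjusted p 0.0504). The heart and muscle forms Cox6a2 (-1.10 ± 0.82) and Cox8b (-0.49 ± 0.85) and the testis form Cox7b2 (-2.07 ± 1.09) were not called, and none exceeded 1.82 CPM in a sham segment library. Cox6a1 and Cox7b made up a median of at least 99.5% of their pair in every tissue. The Cox7a2 gene ENSRNOG00000042903 had 0.242 to 1.78 CPM in S1 tubules and 0.0611 to 1.12 CPM in glomeruli (0.46 ± 0.57). Per length, the 2 Cox7a2 genes together stood at 2.16 to 11.1 in sham S1 tubules and 0.553 to 15.9 in sham glomeruli. In sham whole kidney, whose libraries were made with another kit, this level was 200 to 396. No gene of the count tables carried the symbol Cox7a1, so it could not be analysed. Reads shared with near-identical copies can be lost or credited to the copy, so values of Cox6c1 and of members that share a symbol, such as Uqcr10 and Cox6b1, are uncertain.

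Levels of different genes were compared per length, as the authors' RPKM (segments) or FPKM (whole kidney) rescaled so that the nuclear genes of a library have the same sum in every library, the scale on which TPM are given. In sham S1 tubules the highest member of each complex was Ndufb9 in complex I (median 746, 518 to 1100), Sdhc in complex II (1220, 941 to 1620), Uqcrh in complex III (1190, 739 to 1560), Cox7c in complex IV (2760, 1080 to 3180) and Atp5b in ATP synthase (3720, 1990 to 5040). In sham glomeruli the same genes led 4 of the complexes at lower levels: Sdhc 272 (191 to 383), Uqcrh 500 (310 to 634), Cox7c 779 (392 to 1070) and Atp5b 567 (290 to 954). Complex I was led there by Ndufc2 at 297 (106 to 386), whose range overlapped that of the next gene, Ndufb9, at 221 (187 to 293). Atp5b led in sham whole kidney too (2740, 2310 to 4310), ahead of Atp5a1 (1760). Whole kidney differed in complexes II and IV. Sdhc was the lowest of the complex II genes there (331), below Sdha (538) and with overlapping ranges, and Cox7c had a median of 296 (146 to 1080), eighth in its complex. Cox6c (1020, 758 to 1520) and Cox5b (968) were highest there, in an order that turned on the FPKM as deposited (medians 261 and 279). The lowest tested members were the Ndufa13 gene ENSRNOG00000021688 (3.68), Sdhb (452), the Uqcr10 gene ENSRNOG00000009521 (135), Ndufa4l2 (0.221) and Atp5hl1 (0.437) in S1 tubules. In glomeruli they were Ndufb4l1 (1.64), Sdhb (85.8), the same Uqcr10 gene (50.4), Cox7b2 (1.03) and Atp5s (11.6). In whole kidney they were Ndufa1 (2.04), Sdhc, the same Uqcr10 gene (11.5), Cox4i2 (2.35) and the Atp5f1 gene ENSRNOG00000016000 (10.4). Ndufa1 had at most 3 counts in an S1 library and 0 in every glomerulus library. Whether its transcript is scarce or its reads were not counted was not tested.

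Genes around the chain were also mostly higher in sham S1 tubules than in sham glomeruli with TMM factors. Of all 24488 genes tested, 18.6% were called higher and 21.1% lower. As for the members, the size of these shifts depends on the scaling, and values without TMM factors were not taken for these lists. Of 42 tested assembly factors, which build the complexes, 38 were higher and none lower (median 1.47), and of 12 tricarboxylic acid cycle enzymes all were higher (2.72). Coenzyme Q synthesis had 11 of 12 higher (1.19). Among 12 carriers and pores 9 were higher and 2 lower: the ADP/ATP carriers Slc25a5 (3.54 ± 0.36) and Slc25a4 (2.26 ± 0.23) were higher, and the uncoupling protein Ucp2 (-3.52 ± 0.36) and the ADP/ATP carrier Slc25a31 (-1.88 ± 0.72) lower, while Ucp3 did not pass (-1.11 ± 0.63). All 31 tested mitochondrial genome transcripts were higher, with a median of 3.09, led by the complex I transcripts Mt-nd4l (5.06 ± 0.31) and Mt-nd4 (4.78 ± 0.43). Of 17 transcriptional regulators 11 were higher and 2 lower (median 0.96). The nuclear receptor Ppara (5.38 ± 0.30), Esrrg (3.73 ± 0.29) and the coactivator Ppargc1a (3.51 ± 0.24) were the highest of these, and Esrra (1.97 ± 0.32) and the mitochondrial transcription factor Tfam (1.06 ± 0.20) were higher too. Nrf1, the factor that binds the core motif shown above, was lower (-0.54 ± 0.21, adjusted p 0.0391), as was Pprc1 (-0.93 ± 0.20), and the GABP subunit Gabpa did not pass (0.21 ± 0.21). The regulators were not all called in the same direction, while each complex had a median above 2.

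After nephrectomy no subunit differed from sham at the adjusted threshold in any tissue or at any time. edgeR called 0 of 77 tested members in S1 tubules, 0 of 77 in glomeruli and 0 of 79 in whole kidney at 24, 48 and 72 h, for the 3 times averaged and for any change of the effect with time. The share of all genes called was 0% in S1 tubules and in glomeruli at each time and for the mean, with 0.0109% and 0.00446% between times. In whole kidney it was 0.236% at 24 h (0.0893% higher, 0.147% lower), 0% at 48 h, 0.00638% at 72 h, 2.86% for the mean (1.69% higher, 1.17% lower) and 0.0191% between times. The nephrectomy effect in S1 tubules minus that in glomeruli was called for 0 of 82 members (0% of all genes; 2 members and 2.54% of all genes at an unadjusted p under 0.05). DESeq2 and limma voom also called 0 members in these comparisons, except for the whole kidney mean described below. The members' median log2 fold changes at 24, 48 and 72 h were -0.15, 0.19 and -0.14 in S1 tubules, 0.19, 0.08 and -0.01 in glomeruli, and -0.14, 0.06 and 0.06 in whole kidney.

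How large a change these libraries could hide differed by tissue. In whole kidney the 95% interval of the mean effect lay within 2-fold either way in 78 of 79 members (89.7% of all genes) and within 1.5-fold in 70, the exception at 2-fold being the barely detected Ndufa1. In S1 tubules the interval of the mean effect lay within 2-fold in 69 of 77 members (51.2% of all genes) and within 1.5-fold in 38. In glomeruli these numbers were 70 of 77 (52.3%) and 42. At single times they were lower: 25, 28 and 28 of 77 members lay within 2-fold in S1 tubules at 24, 48 and 72 h, and 29, 49 and 44 in glomeruli. The S1 counts depended on nephrectomy 72 h replicate 2: without it they were 61, 65 and 52 of 76 members at 24, 48 and 72 h. For the S1 mean 69 of 76 then lay within 2-fold and 61 within 1.5-fold. The median SE of a member's mean effect was 0.26 in S1 tubules, 0.22 in glomeruli and 0.12 in whole kidney on the log2 scale.

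**Figure D4:**
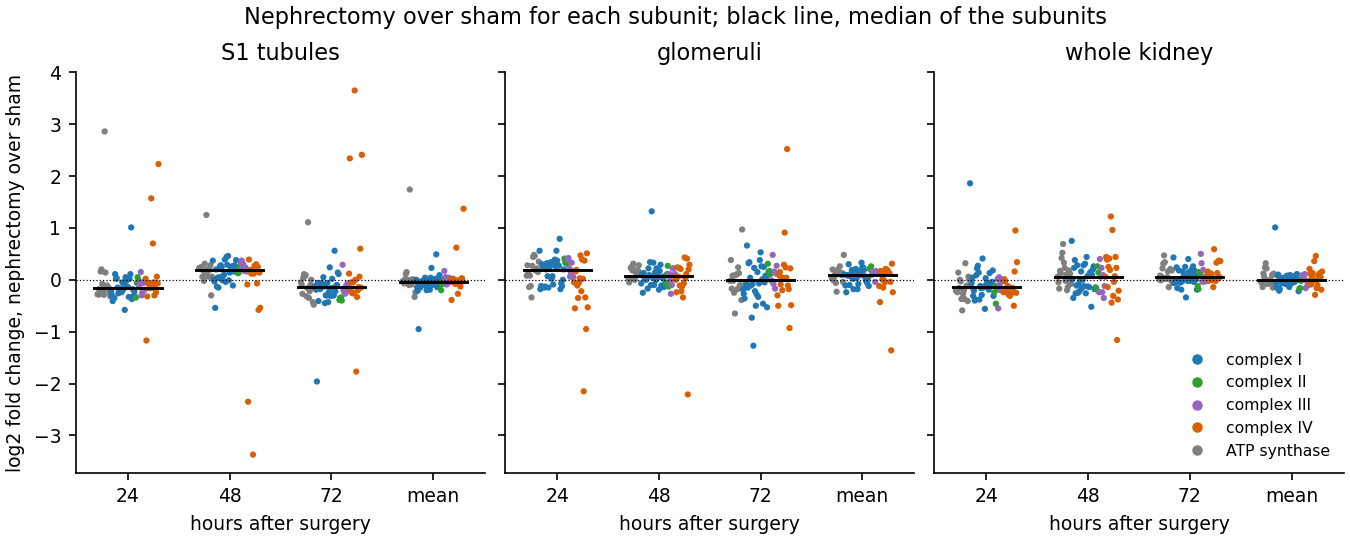
Log2 fold change of each tested member, nephrectomy over sham, at 24, 48 and 72 h and for the mean of the times, in S1 tubules, glomeruli and whole kidney, coloured by complex. Black lines are medians, which stay between -0.15 and 0.19; the points far from 0 are barely detected genes such as Cox6b2 and Atp5hl1, and none passed the adjusted threshold.

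In S1 tubules abundant subunits spread widely within a group. Atp5b had 1580, 724, 570 and 717 CPM at 24 h after nephrectomy, against 1580, 752 and 942 CPM after sham surgery. At 48 h it had 1660, 1730, 1740 and 2210 CPM after nephrectomy, against 1590, 1390, 1480 and 1850 CPM after sham surgery. At 72 h it had 1990, 358, 981 and 836 CPM after nephrectomy, against 1410, 1140, 752 and 1130 CPM. The groups overlapped at each time, and the lowest value, 358, was that of nephrectomy 72 h replicate 2. Without that library the members' median at 72 h was 0.15 in place of -0.14, and for the mean of the times 0.06 in place of -0.04. Cox4i1 showed the same library most sharply, with 149, 2.53, 199 and 208 CPM at 72 h after nephrectomy, against 137, 74.6, 198 and 106 CPM after sham surgery.

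The smallest S1 p-values at single times belonged to members near the detection limit. Cox6b2 had 0.0464, 0.0136, 0 and 0 CPM at 48 h after nephrectomy, against 0.123, 0, 0.425 and 0.176 CPM after sham surgery (-3.37 ± 1.60, unadjusted p 0.0457 and adjusted p 1 in edgeR). At 72 h it had 0.164, 0.758, 0.676 and 0 CPM after nephrectomy, against 0.0493, 0, 0.051 and 0 CPM (3.65 ± 1.51, unadjusted p 0.0236, adjusted p 0.323), and 3.19 ± 1.49 without nephrectomy 72 h replicate 2, the library at 0.758 CPM (adjusted p 0.994). Its direction differed between the times and both groups held libraries with 0. At 24 h the smallest p was that of Atp5hl1 (2.86 ± 1.71, unadjusted p 0.107), under 0.7 CPM in each of those libraries. For the mean of the times the 3 smallest were Atp5hl1 (1.74 ± 0.91, unadjusted p 0.0663), Atp5sl, which is well detected (-0.24 ± 0.16, 0.129), and the Ndufa13 gene ENSRNOG00000021688 (-0.95 ± 0.66, 0.166). Without nephrectomy 72 h replicate 2, Atp5hl1 had too few counts to be tested, Atp5sl stood at -0.24 ± 0.15 and this Ndufa13 gene at -0.85 ± 0.65. Over all S1 comparisons 0, 1 and 1 members had an unadjusted p under 0.05 at 24, 48 and 72 h, 0 for the mean and 1 for a difference between times. The share of all genes was 0.729%, 1.96% and 13.2% at 24, 48 and 72 h, 2.54% for the mean and 7.15% for a difference between times. Without nephrectomy 72 h replicate 2 there were 2, 1 and 2 members at 24, 48 and 72 h (1.76%, 4% and 4.75% of all genes) and 1 for the mean (3.46%). At 24 h all nephrectomy libraries lay below the 3 sham libraries in 2 members, Atp5sl and Ndufb8 (1.58% of all genes) and above them in 0 (1.81%). At 48 h no member separated (2.92% of all genes above, 2.81% below), nor at 72 h (0.664% above, 0.495% below).

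In glomeruli the members leaned slightly upward at 24 h (median 0.19), as they did in S1 tubules at 48 h (median 0.19), with none called. Sdhc had 167, 125, 136 and 153 CPM at 24 h after nephrectomy, against 97.9, 148 and 98.3 CPM after sham surgery. At 48 h it had 95.7, 102, 129 and 135 CPM against 95.7, 83.7, 100 and 105 CPM, and at 72 h 125, 167, 129 and 98 CPM against 103, 101, 128 and 129 CPM. Groups overlapped at each time, and the mean effect was 0.26 ± 0.13 (unadjusted p 0.0637, adjusted p 1). With the sham 24 h libraries numbered 2 included as labelled it was -0.33. The coupling factor gene Atp5j had 173, 128, 140 and 117 CPM at 24 h after nephrectomy, against 111, 114 and 79.8 CPM after sham surgery (0.46 ± 0.26, unadjusted p 0.093). These groups did not overlap, which was also true of Ndufs4 and Cox7a2l, in 3 members against 1.43% of all genes, with 3 sham libraries. Atp5j too turned (-0.27) with the library numbered 2.

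The other glomerular members with the smallest p-values were Atp5sl and the weakly expressed Cox8c. Atp5sl, in human cells an assembly protein of complex I despite its symbol, had 16.7, 15, 58.7 and 14.4 CPM at 72 h after nephrectomy, against 13.4, 8.64, 17.8 and 13.1 CPM after sham surgery (0.97 ± 0.38, unadjusted p 0.0176, adjusted p 1). Its highest value came from nephrectomy 72 h replicate 3, the shallowest glomerulus library, and the other 3 lay within the sham range. Its mean effect was 0.48 ± 0.23 (unadjusted p 0.0444). Cox8c had 0.216, 0.254, 0 and 0 CPM at 48 h after nephrectomy, against 0.291, 0.218, 1.5 and 0.374 CPM after sham surgery (-2.21 ± 1.24, unadjusted p 0.0875), and a mean effect of -1.36 ± 0.65 (unadjusted p 0.0471). The 3 isoforms that were higher in glomeruli than in S1 tubules were not called either. The mean effects were -0.24 ± 0.41 for Ndufa4l2, -0.43 ± 0.32 for Cox4i2 and -0.05 ± 0.38 for Cox6b2. Unadjusted p-values under 0.05 were found in 0, 0 and 1 members at 24, 48 and 72 h, 2 for the mean and 0 for a difference between times. The share of all genes was 0.919%, 1.36%, 2.9%, 2.11% and 1.04% in the same order.

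In whole kidney the member closest to the threshold was Ndufv3, an accessory subunit of the NADH-oxidizing module of complex I. It had 38, 33.4, 36.9 and 31.9 CPM at 24 h after nephrectomy, against 54.7, 33.2, 39.9 and 45.4 CPM after sham surgery. At 48 h it had 45.1, 37.9, 39 and 37.6 CPM against 42, 42.6, 42.6 and 50.2 CPM, and at 72 h 35.6, 32.2, 33.5 and 32.7 CPM against 38, 35.7, 40.9 and 38.7 CPM. All nephrectomy libraries lay below all sham libraries at 72 h, and the groups overlapped at 24 and 48 h. The mean effect was -0.22 ± 0.07 (unadjusted p 0.0049, adjusted p 0.0962), and at 24 h it was -0.31 ± 0.12 (adjusted p 0.294). DESeq2 called it for the mean (adjusted p 0.0445), as did voom with quality weights, and so did edgeR without sham 24 h replicate 2 (-0.26, adjusted p 0.0173). The share of all genes called for the mean was 5.52%, 12% and 6.76% in these 3 analyses. Voom called 4 members for this mean, 3 higher and 1 lower, where 5.52% of all genes were higher and 6.49% lower.

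Cox6c (-0.29 ± 0.12, unadjusted p 0.0266, adjusted p 0.216) and Sdha (-0.17 ± 0.08, unadjusted p 0.0335, adjusted p 0.238) came next for the whole kidney mean. Sdha had 278, 289, 295 and 287 CPM at 24 h after nephrectomy, against 444, 292, 314 and 307 CPM after sham surgery. It had 326, 328, 301 and 251 CPM at 48 h against 309, 354, 339 and 339 CPM, and 285, 266, 292 and 309 CPM at 72 h against 277, 294, 340 and 339 CPM. The groups overlapped at each time. Cox6c passed in edgeR without sham 24 h replicate 2 (-0.38, adjusted p 0.0267). The Cox7a2 gene ENSRNOG00000027791 had 1.28, 1.59, 1.92 and 1.2 CPM at 48 h after nephrectomy, against 0.784, 0.872, 0.603 and 0.809 CPM after sham surgery, without overlap (0.96 ± 0.35, unadjusted p 0.0118, adjusted p 0.339). It also separated at 72 h (0.59 ± 0.35), where Ndufb7 and Ndufv3 were the members lying wholly below sham. Members wholly above sham were 1 at 48 h and 1 at 72 h (3.43% and 5.33% of all genes), and wholly below 0 and 2 (3.81% and 5.43%). Unadjusted p-values under 0.05 were found in 2, 2 and 0 of 79 members at 24, 48 and 72 h, 5 for the mean and 0 for a difference between times. The members' shares of 2.53%, 2.53%, 0%, 6.33% and 0% stood below those of all genes, at 12.9%, 10.3%, 5.2%, 17.5% and 4.99%; whether the members differ from other genes in this was not tested.

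The sham 24 h whole kidney libraries spread more than any other whole kidney group. Sham 24 h replicate 1 was the highest of its group in 61 of 77 members compared (31.3% of all genes) and had the summed share of 2.93%. Cox7c had 23.6, 36.5, 75.6 and 45.1 CPM at 24 h after nephrectomy, against 144, 58, 34.3 and 18 CPM after sham surgery. Atp5g2 had 33.7, 44.6, 83.7 and 49.3 CPM, against 171, 78.6, 39.9 and 25.7 CPM. Sdhc had 83.2, 94.2, 153 and 82.3 CPM, against 269, 147, 73.2 and 76.8 CPM. In all 3 the first sham libraries were the highest of their group and the last ones within or below the nephrectomy range. Ndufb10 went the other way, with 46.9, 44, 61.5 and 47.6 CPM after nephrectomy, against 26.9, 29, 61.4 and 47.4 CPM after sham surgery. The libraries of 24 h numbered 3 and 4, of both surgeries, also differed in that mitochondrial genome transcripts took 71.0 to 80.6% of their gene counts, against 36.0 to 66.3% in the 4 numbered 1 and 2.

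**Figure D5:**
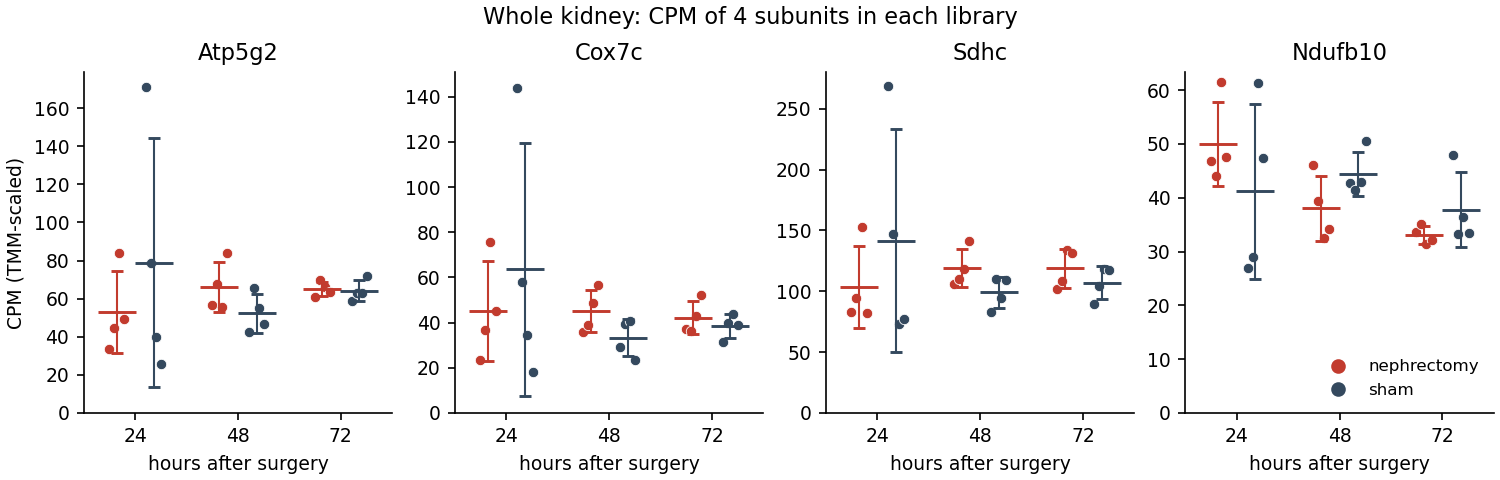
CPM of Atp5g2, Cox7c, Sdhc and Ndufb10 in each whole kidney library at 24, 48 and 72 h after nephrectomy or sham surgery. Bars give the mean and SD of 4 libraries; the sham 24 h points spread from 25.7 to 171 CPM in Atp5g2 and from 18 to 144 CPM in Cox7c, while groups of 48 and 72 h lie closer together and overlap in most panels.

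Without the 24 h libraries numbered 3 and 4 of both surgeries, 27 of 80 tested members were called at 24 h, 2 higher and 25 lower, where 16.4% of all genes were called (6.22% higher, 10.2% lower). The median was then -0.39. The 2 higher were Ndufb10 (0.69) and Atp5j (0.70). The lower ones included Cox7c (-1.76), Atp5g2 (-1.68, adjusted p 0.00137), Sdhc (-1.24) and Atp5b (-0.69), and 20 of 80 members were called for a difference between times (11.4% of all genes). This comparison sets 2 nephrectomy against 2 sham libraries, and 1 of these is the sham replicate 1 that stood highest. Leaving out that library alone gave a 24 h median of 0.11 and 0 members called. In whole kidney the proximal tubule markers summed to 1.97, 2.03, 1.90 and 2.07% of nuclear counts at 24 h after nephrectomy, against 2.43, 2.96, 2.39 and 2.60% in the sham group, for 16 of 16 markers. Their part in the members' values was not tested.

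Among the other genes of the pathway, 1 passed the test after nephrectomy. In whole kidney Suclg2, a subunit of succinate-CoA ligase in the tricarboxylic acid cycle, fell by 0.40 ± 0.10 on the log2 scale over the 3 times (adjusted p 0.0249), 1 of 12 tricarboxylic acid cycle genes tested. None of 42 assembly factors, 17 regulators, 12 coenzyme Q genes, 12 carriers or 24 mitochondrial genome transcripts passed there, and none of these lists had a called gene in S1 tubules or glomeruli for the mean of the times. The smallest p in glomeruli was that of the coenzyme Q-binding protein gene Coq10b (0.74 ± 0.18, unadjusted p 0.000426, adjusted p 1), followed by Suclg2 (0.44 ± 0.18) and the isocitrate dehydrogenase subunit Idh3a (0.39 ± 0.19). The complex IV assembly factor Cox16 was next after Suclg2 among the nuclear genes in whole kidney (-0.36 ± 0.13, adjusted p 0.155). The regulators fixed by name also failed to pass: Ppargc1a stood at -0.21 in S1 tubules, 0.17 in glomeruli and -0.04 in whole kidney, Esrra at -0.19, -0.02 and 0.17, Nrf1 at -0.43, -0.18 and 0.00, and Tfam at 0.09, 0.24 and -0.08. Mitochondrial genome transcripts had medians of 0.60 in S1 tubules, 0.06 in glomeruli and -0.15 in whole kidney.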

How the data were processed

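RNA-seq of S1 tubules, glomeruli and whole left kidney was analysed as read counts per gene that the authors deposited, and the submitters' processing notes name HTSeq, SAMtools, STAR 2.4.0.1 and Trimmomatic 0.32. Genome build, annotation and strand setting were not given in the sources used here. The authors also deposited RPKM for the segments and FPKM for whole kidney, and for each gene these were a fixed multiple of its count per library total (largest CV 3.19e-09 over 5885 genes and 2.48e-09 over 10501 genes with over 20 counts in every library). The 5 HTSeq summary entries were left out, no column lacked a sample, and reads without a unique position made up 31.5 to 53.9% of reads in S1 tubules, 34.8 to 59.7% in glomeruli and 32.1 to 93.9% in whole kidney. Such reads count for no gene, which touches near-identical copies.

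Groups came from the labels. Libraries of a group differed by more than sampling noise in all 108 pairs. Counts were fitted with edgeR 4.0.16 (R 4.3.3) by quasi-likelihood F test on all genes of a tissue with TMM factors and filterByExpr (minimum count 10), 1 mean per group of surgery and time, and p-values were adjusted over all genes tested by Benjamini-Hochberg at 0.05. S1 tubules and glomeruli were compared in a joint fit of 46 libraries, so CPM in that comparison are on another scale than CPM of the nephrectomy comparisons, which come from the fit of each tissue. TMM factors ran from 0.34 to 2.45 in the joint fit, and the common biological coefficient of variation was 0.713 in S1 tubules, 0.625 in glomeruli and 0.248 in whole kidney, so precision is highest in whole kidney. The SE of a fold change is its absolute value over the root of F, and intervals are 95%. Alternatives were DESeq2 1.42.0, limma 3.58.1 voom with quality weights, library totals without TMM, no filter, mitochondrial genome genes left out, a replicate block, both left-out libraries included, 24 h whole kidney libraries numbered 3 and 4 left out, and each library left out in turn. The fit was also run on simulated counts that had the same spread for every gene of a fit and no outlying libraries. That run therefore does not speak to the spread between libraries seen here.

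Members and gene lists were chosen with earlier results of these data known. Named were members called, the smallest p-values of each nephrectomy comparison, the 8 highest and 8 lowest of S1 tubules over glomeruli, the highest and lowest per length of each complex, isoform sets and complex II. The other members appear in counts and ranges, apart from some subunits named for their role after their values were seen. Replicate numbers were not taken to pair libraries. Same-numbered libraries correlated above 0.1 in 5 of 11 pairs in S1 tubules, 2 of 11 in glomeruli and 6 of 12 in whole kidney. With different numbers this held in 10 of 33, 9 of 33 and 10 of 36 pairs. In the joint fit of both segments it held in 12 of 23 same-numbered pairs, against 18 of 66 with different numbers. Results with a replicate block are given below.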

Additional observations from a re-analysis of the deposited data

Results flagged for a closer look

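The sham 24 h glomerulus library numbered 2, which entered no comparison, had members at 1.5% of nuclear gene counts, where the other 23 glomerulus libraries lay between 0.364 and 0.577%. Its proximal tubule markers stood at 5.32% and its podocyte markers at 0.0171%. Its counterpart labelled S1 tubules had members at 0.395%, with podocyte markers at 1.48%.

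Single members with 1 library far from the other 3 of its group were counted by Dixon's test, which flags about 1 in 20 groups by chance. There were 39 of 385 groups in S1 tubules (10.1%), 29 of 385 in glomeruli (7.53%) and 37 of 474 in whole kidney (7.81%). The same count was not made over all genes, so whether the members differ from other genes in this is not known. The libraries with the most were whole kidney nephrectomy 24 h replicate 3, highest in 10 of them, and S1 nephrectomy 24 h replicate 1, highest in 9.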

How the results depend on the processing

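Of the counts of called members and summed levels, 577 values under an alternative kept to the reported result and 8 moved. In whole kidney without the 24 h libraries numbered 3 and 4, 27 members were called at 24 h (16.4% of all genes) and 20 for a difference between times (11.4%). For the whole kidney mean DESeq2 called 1 of 79 members (5.52% of all genes). Voom called 4 (12% of all genes), 3 higher and 1 lower. Leaving out 1 library gave 0 to 2 members. Without sham 24 h replicate 1 it was 1 (3.56% of all genes), the Cox7a2 gene ENSRNOG00000027791 (0.65, adjusted p 0.0353 in edgeR). Without sham 24 h replicate 2 there were 2 (6.76%). The ratio of summed levels, S1 tubules over glomeruli, was 2.03 over all gene counts and 1.91 as deposited RPKM. Leaving out 1 library gave 73 to 75 members called for S1 tubules over glomeruli and 0 in the other nephrectomy comparisons. With the replicate block 74 members were called for S1 tubules over glomeruli and 0 in every nephrectomy comparison.

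Directions were followed for part of the members only, and Ndufa7 and Cox7a2l were not among them. With the sham 24 h libraries numbered 2, Atp5j in glomeruli at 24 h (-0.27) and Sdhc in the glomerular mean (-0.33) reversed. For S1 tubules over glomeruli, Atp5g2 (-0.04) and the Cox7a2 gene ENSRNOG00000042903 (-1.34) reversed without TMM factors. Over all 82 members tested, 12 were called lower in S1 tubules without TMM factors, against 3 with them. Atp5hl1 reversed in this comparison (0.05) without glomeruli sham 24 h replicate 1, with a range of -1.74 to 0.05 when each library was left out. Among named members 1991 values kept their call, 26 gained and 3 lost it. The cause was not tested, beyond the libraries left out or added. With both libraries numbered 2 the glomerular median at 24 h was -0.76 and that of S1 tubules over glomeruli 1.93. The spread between libraries was widest in the segments (common biological coefficient of variation 0.713 in S1 tubules, 0.625 in glomeruli, against 0.248 in whole kidney), and the part of depth in it was not tested.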
